A study of Mus musculus with 20 samples.

Results

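Slc2a1, Slc2a3, Hk1, Hk2 and Hk3 encode the glucose transporters GLUT1 and GLUT3 and the 3 hexokinases that carry out the first steps of glucose use. They were taken by gene symbol as 5 of the 24862 gene rows of the RNA-seq count tables of mouse TH17 cells, the CD4 T cells that make interleukin-17. The choice used no measured value, but it was made with earlier results of these data known. Each member was present in all 12 tables. Levels are given in CPM, the count of a gene scaled to a fixed total of gene counts per library.

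The 12 libraries form 6 groups of 2, all from C57BL/6 mice. CNS and ileum libraries came from GFP-positive TH17 cells that were sorted out of cell suspensions of the central nervous system and of the ileum. TH17(β) cells were grown from naive CD4 T cells under TGF-β1 plus IL-6, and overexpressed c-Rel, an NF-κB subunit (Ad-c-Rel), or had the control treatment (Ad-control). Naive cells of miR-21-/- or control mice were grown into TH17(23) cells under IL-6, IL-23 and IL-1β. All cultures were stimulated through CD3 and CD28 with IL-4 and IFN-γ blocked, so the culture controls are activated cells as well. The reporter that marks the sorted cells, any disease model, and the age, sex and pooling of the mice were not stated in the labels. Nothing there says that replicates are separate animals or cultures, so every p-value below reflects only how far these samples differ, possibly for technical reasons. Sorted cells were prepared with a SMART-Seq v4 kit and the TH17(23) cells with a TruSeq stranded total RNA kit, and the kit of the TH17(β) libraries is not clearly given. Kit and experiment therefore cannot be told apart from the groups when levels are set across the 3 pairs. The series' 8 ATAC-seq samples were not analysed here.

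Glucose enters T cells by facilitated diffusion through carriers of the SLC2 family, and GLUT1 is the carrier best known for its increase after T cell activation. GLUT3 has a high affinity for glucose and is abundant in neurons and several leukocytes. A hexokinase then phosphorylates glucose to glucose 6-phosphate, which keeps it in the cell and commits it to glycolysis, the pentose phosphate pathway or glycogen. Hk1 is the widely expressed form, Hk2 the form induced by growth signals and by hypoxia, and both bind mitochondria through voltage-dependent anion channels. Hk3 lacks that binding segment and is known from myeloid cells. Hypoxia-inducible factor 1 is a known activator of Slc2a1 and Hk2.

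Slc2a1, Hk1 and Hk2 rose together in the c-Rel comparison below, so the stretches before their annotated starts are shown, beside that of Hk3, which was nearly absent from the same cells. Each is the 250 bases before a start site on the gene's own strand, from RefSeq with build GRCm38.p6, the same assembly as the mm10 build of the labels. Capitals mark ACGTG or GCGTG on either strand, the core letters of the hypoxia response element. Windows were found for 4 of the 5 members, and Slc2a3 had none.
Slc2a1 (chr4:119108495-119108744, plus strand): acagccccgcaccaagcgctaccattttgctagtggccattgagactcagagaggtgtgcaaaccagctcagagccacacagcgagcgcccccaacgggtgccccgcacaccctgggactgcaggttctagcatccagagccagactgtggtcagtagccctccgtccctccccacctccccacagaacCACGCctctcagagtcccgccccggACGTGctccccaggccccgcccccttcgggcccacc
Hk1 (chr10:62340422-62340671, minus strand): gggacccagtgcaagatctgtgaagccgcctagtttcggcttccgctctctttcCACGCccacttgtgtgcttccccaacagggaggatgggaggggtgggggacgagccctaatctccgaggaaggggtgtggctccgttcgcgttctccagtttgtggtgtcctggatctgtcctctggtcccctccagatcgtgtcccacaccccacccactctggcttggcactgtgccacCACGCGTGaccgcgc
Hk2 (chr6:82774455-82774704, minus strand): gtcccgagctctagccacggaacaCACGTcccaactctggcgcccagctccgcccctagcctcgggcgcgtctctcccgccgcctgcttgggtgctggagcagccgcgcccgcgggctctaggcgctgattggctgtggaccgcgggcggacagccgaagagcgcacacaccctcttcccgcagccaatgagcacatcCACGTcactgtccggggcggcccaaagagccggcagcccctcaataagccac
Hk3 (chr13:55021386-55021635, minus strand): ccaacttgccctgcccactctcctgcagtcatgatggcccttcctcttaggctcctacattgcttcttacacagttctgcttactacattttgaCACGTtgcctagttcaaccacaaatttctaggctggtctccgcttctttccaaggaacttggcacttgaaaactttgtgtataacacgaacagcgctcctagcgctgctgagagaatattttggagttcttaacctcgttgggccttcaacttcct

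The Slc2a1 window held 2 matches, which begin 61 and 36 bases before the start. The Hk1 window held 3, of which 2 overlap each other beside the start. The Hk2 window held 2, beginning 226 and 52 bases before the start, and the Hk3 window held 1, beginning 156 bases before it. A further annotated Hk1 start (window chr10:62379909-62380158) had 0 matches. These letters are common: 38.6% of 32851 RefSeq windows of the same length held at least 1. The E-box CACGTG, which contains ACGTG and is bound by Myc among others, was in 0 of the 5 member windows and in 6.02% of all windows. The NF-κB (kappa B) consensus was in 0 of the 5 and in 7.25% of all. A match is a description of letters and says nothing of binding in these cells.

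Gene counts per library were 1.54e+07 to 1.99e+07 in the CNS, ileum, Ad-control and Ad-c-Rel libraries and 3.28e+07 to 3.67e+07 in the 4 TH17(23) libraries. CNS replicate 2 and ileum replicate 2 held fewer genes with any count (11545 and 10771) than CNS replicate 1 and ileum replicate 1 (14224 and 13927). Rel, the gene of c-Rel, was at 57.5 and 61.9 CPM in the Ad-c-Rel libraries and at 10.8 and 7.02 CPM in the Ad-control libraries. The Mir21a row, which counts the precursor gene and not the mature microRNA, held 0 and 0 counts in the miR-21-/- libraries and 25 and 20 in their controls. All 12 T cell identity genes examined, Cd3e and Cd4 among them, and all 6 TH17 genes were detected in every library. The TH17 genes, Il17a among them, summed to 568 to 603 CPM in CNS and 9741 to 10651 CPM in ileum. The sorted libraries also carried transcripts of other cells, given beside the results they touch.

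Slc2a1, the GLUT1 transcript, was lowest in the sorted cells and highest in the TH17(23) controls. It was at 155 and 155 CPM in CNS and 128 and 59.6 in ileum, 248 and 231 in Ad-control and 295 and 293 in Ad-c-Rel, 390 and 546 in the TH17(23) controls and 204 and 403 in miR-21-/- cells. The 2 ileum libraries lay far apart, as did the 2 miR-21-/- libraries, while the CNS and Ad-c-Rel pairs were tight. The group means spanned a 4.99-fold range, from 93.9 ± 48.5 CPM (SD, n = 2) in ileum to 468 ± 110 CPM (SD, n = 2) in the TH17(23) controls. In the order of means, miR-21-/- cells (303 ± 141 CPM, SD, n = 2) overlapped with both neighbours, the TH17(23) controls above and Ad-c-Rel (294 ± 1.30 CPM, SD, n = 2) below.

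Slc2a3, the GLUT3 transcript, had a far wider range than Slc2a1. It was at 121 and 103 CPM in CNS, 46.8 and 46.8 in ileum, 2164 and 2456 in Ad-control, 2827 and 3166 in Ad-c-Rel, 1527 and 2328 in the TH17(23) controls and 862 and 1290 in miR-21-/- cells. Every cultured library was above every sorted library, and the means spanned a 64.0-fold range. The largest step lay between miR-21-/- cells (1076 ± 303 CPM, SD, n = 2) and CNS (112 ± 12.5 CPM, SD, n = 2), a 9.62-fold gap. Only Ad-control and the TH17(23) controls, neighbours in the order, overlapped.

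Hk1, like Slc2a3, was higher in every cultured library than in every sorted one, but its highest mean was in the TH17(23) controls and not in Ad-c-Rel. Its level was 115 and 98.6 CPM in CNS, 67.1 and 46.7 in ileum, 488 and 440 in Ad-control, 557 and 542 in Ad-c-Rel, 750 and 939 in the TH17(23) controls and 521 and 640 in miR-21-/- cells. The range of the means was 14.8-fold, with a 4.36-fold step between Ad-control and CNS. Only miR-21-/- cells and Ad-c-Rel overlapped as neighbours.

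Hk2, the inducible form, did not follow the split into cultured and sorted cells. Its level was 98.5 and 90.3 CPM in CNS, 92.4 and 83.1 in ileum, 51.9 and 49.8 in Ad-control, 65.2 and 78.2 in Ad-c-Rel, 363 and 407 in the TH17(23) controls and 193 and 215 in miR-21-/- cells. The TH17(β) cultures were the lowest of all groups for Hk2, although they were the highest for Slc2a3. Mean levels ran from 50.8 ± 1.45 CPM (SD, n = 2) in Ad-control to 385 ± 31.2 CPM (SD, n = 2) in the TH17(23) controls, a 7.58-fold range. Only CNS and ileum overlapped as neighbours.

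Hk3 was a transcript of the sorted libraries. It was at 111 and 92.0 CPM in CNS and at 11.4 and 31.3 CPM in ileum. Each cultured library held 1 to 6 Hk3 counts in total: 4 and 1 in Ad-control, 2 and 1 in Ad-c-Rel, 6 and 5 in miR-21-/- and 5 and 6 in the TH17(23) controls. The order of the cultured groups for Hk3 has no meaning at such counts.

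**Figure D1:**
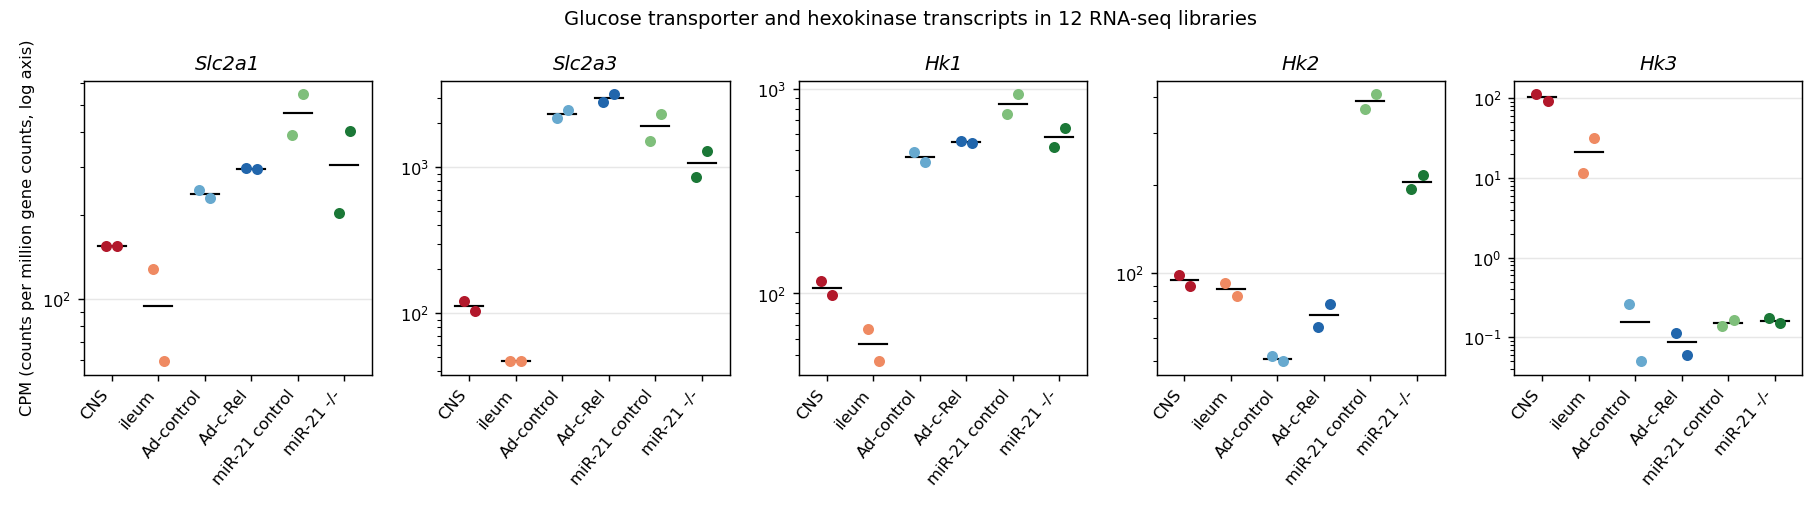
Level of each of the 5 transcripts in the 12 libraries (CPM, log axis, a separate scale for each gene); points are libraries and bars the means of the 2 libraries of a group. Slc2a3 and Hk1 are higher in every cultured library than in every sorted one, Hk2 is lowest in the TH17(β) cultures, and Hk3 is at 1 to 6 counts in each cultured library.

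Differences between the 6 groups exceeded the spread within them for all 5 members. For Hk3 this rests on the CNS and ileum libraries alone, as each cultured library held 1 to 6 counts. An exact permutation test over the 10395 ways to divide 12 libraries into 6 pairs gave adjusted p-values, over 7 measures, of 0.00572 for Slc2a1, 0.0004 for Slc2a3, 0.0005 for Hk1, 0.0004 for Hk2 and 0.00770 for Hk3. Groups accounted for 85.2% of the variance of log2(CPM + 1) for Slc2a1 and for 98.8% to 99.4% for the others. The other 2 measures were the count ratios described next, with adjusted exact permutation p-values of 0.00323 for Slc2a1 to Slc2a3 and 0.0004 for Hk2 to Hk1. The smallest unadjusted p the divisions allow is 0.0001. Kit and experiment change together with these groups.

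The balance of the 2 transporters differed between sorted and cultured libraries. Kit and experiment cannot be told apart from this split. The sorted libraries also held more myeloid and microglia transcripts (summed markers 2379 to 21470 CPM, against 64.5 to 131 in the cultured ones). The part of these in the balance was not tested. Transcript lengths were not used here, so a share of counts is not a share of molecules, and shares are compared only between groups. Slc2a1 made up 56.2% and 60.1% of the summed Slc2a1 and Slc2a3 counts in the CNS libraries and 73.3% and 56.0% in the ileum libraries. It made up 10.3% and 8.60% in Ad-control, 9.45% and 8.48% in Ad-c-Rel, 20.4% and 19.0% in the TH17(23) controls and 19.1% and 23.8% in miR-21-/- cells. Each cultured library thus had 3.20 to 10.8 Slc2a3 counts per Slc2a1 count, against 0.365 to 0.785 in the sorted libraries. Exact binomial 95% intervals, which cover counting error only, were narrow beside the difference between the ileum libraries (71.6% to 74.9% in replicate 1 and 53.7% to 58.3% in replicate 2).

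The balance of the hexokinases had a different order. Hk1 made up 35.2% ± 0.178 (SD, n = 2) of the summed Hk1, Hk2 and Hk3 counts in CNS, Hk2 31.3% ± 1.25 and Hk3 33.5% ± 1.08. In ileum the share of Hk2 was larger than in CNS, 54.1% and 51.6% in the 2 libraries, with Hk1 at 39.2% and 29.0% and Hk3 at 6.70% and 19.4%. The level of Hk2 itself overlapped between the tissues (means 94.4 CPM in CNS and 87.7 in ileum). Its larger share went with lower means in ileum of Hk1 (107 and 56.9 CPM) and Hk3 (102 and 21.4 CPM). The part of other cells in these shares was not tested. In the TH17(β) cultures Hk1 was at 90.1% ± 0.378 (SD, n = 2) with Ad-control and 88.4% ± 1.50 (SD, n = 2) with Ad-c-Rel. The TH17(23) cultures lay between, with Hk1 at 68.5% ± 1.69 (SD, n = 2) in controls and 73.9% ± 1.35 (SD, n = 2) in miR-21-/- cells. Hk3 was at most 0.0480% in any cultured library (upper bound of the exact binomial 95% interval 0.123%). The log2 ratio of Hk2 to Hk1 counts was 0.65 ± 0.26 in ileum and −0.17 ± 0.07 in CNS, −1.12 ± 0.11 in TH17(23) controls and −1.50 ± 0.10 in miR-21-/- cells, −2.94 ± 0.21 in Ad-c-Rel and −3.19 ± 0.07 in Ad-control (SD, n = 2 each). None of these neighbours in the order overlapped.

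**Figure D2:**
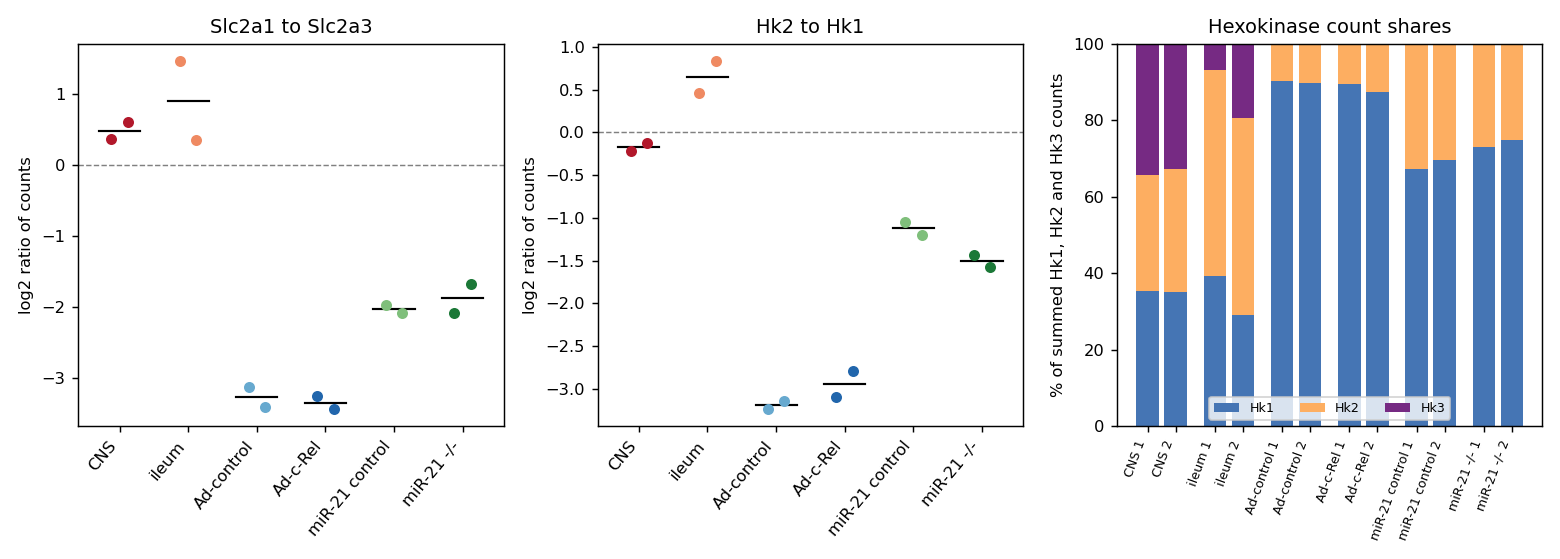
Left and middle: log2 ratio of Slc2a1 to Slc2a3 counts and of Hk2 to Hk1 counts in each library (points) with group means (bars); right: share of the summed hexokinase counts taken by Hk1, Hk2 and Hk3 in each library (percent). The Slc2a1 to Slc2a3 ratio is above 0 in the 4 sorted libraries and below 0 in the 8 cultured ones, and Hk3 takes a visible share in the sorted libraries only, 6.70% to 34.3%.

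CNS against ileum compares TH17 cells sorted from the 2 tissues, and 0 of the 5 members passed the test between them. The background was 4.0% of 12038 tested genes called higher and 5.66% called lower at an adjusted p under 0.05 (edgeR). In bulk samples, fewer cells of a type and less RNA per cell cannot be told apart. Slc2a3 was 2.39-fold higher in mean CPM in CNS, with a fitted log2 change of 1.06 ± 0.239 (SE; adjusted p = 0.0553). Hk3 had the largest fitted log2 change, 2.06 ± 0.513 (SE; adjusted p = 0.0704). Hk1 was at 0.70 ± 0.290 (SE; adjusted p = 0.221) and Slc2a1 at 0.52 ± 0.394 (SE; adjusted p = 0.516). For these 4, both CNS libraries were above both ileum libraries, as for 38.9% of tested genes, while 21.6% had both CNS libraries below. Hk2 overlapped between the tissues (log2 change −0.10, 95% interval −0.65 to 0.46), and its sign turned to 0.11 with scaling to total gene counts, 0.40 with scaling to T cell identity genes and 0.01 without ileum replicate 1. Those 2 scalings moved the median of all genes by 0.20 and 0.50 and the share of higher genes among all calls from 41.4% to 55.5% and 73.7%.

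These calls depended on the method and on single libraries. DESeq2, which called 14.4% of genes higher and 15.1% lower, called Slc2a3 (adjusted p = 9.37e-08), Hk1 (adjusted p = 0.0215) and Hk3 (adjusted p = 0.000322) higher in CNS. Without ileum replicate 1, edgeR called Slc2a1 (log2 change 1.21, adjusted p = 0.0465) and Hk3 (1.52, adjusted p = 0.0434), and without ileum replicate 2 it called Hk3 (2.92, adjusted p = 0.00939).

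Transcripts of myeloid cells moved with the tissue. All 16 myeloid and microglia markers passed as higher in CNS, and their summed level was 20991 to 21470 CPM in CNS, 2379 to 2521 in ileum and 64.5 to 131 in the cultured libraries. Lyz2, a lysozyme of macrophages and other myeloid cells, was at 5672 and 5640 CPM in CNS and 582 and 708 in ileum, with 0 to 6 counts in each cultured library. Tmem119, a microglial gene, was at 407 and 398 CPM in CNS and at 1 and 2 counts in ileum. Neutrophil markers summed to 228 to 232 CPM in CNS and 0.117 to 0.800 in ileum, where 5 of 8 were at 0. B and plasma cell markers went the other way, 1.66 to 10.6 CPM in CNS against 3480 to 3534 in ileum, and 3 of 7 were at 0 in CNS. The 12 T cell identity genes summed to 5561 to 5664 CPM in CNS and 6613 to 6778 in ileum. The part of these cells in the values of Hk3, of the other members and of the pathway genes compared below between these tissues was not tested.

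**Figure D3:**
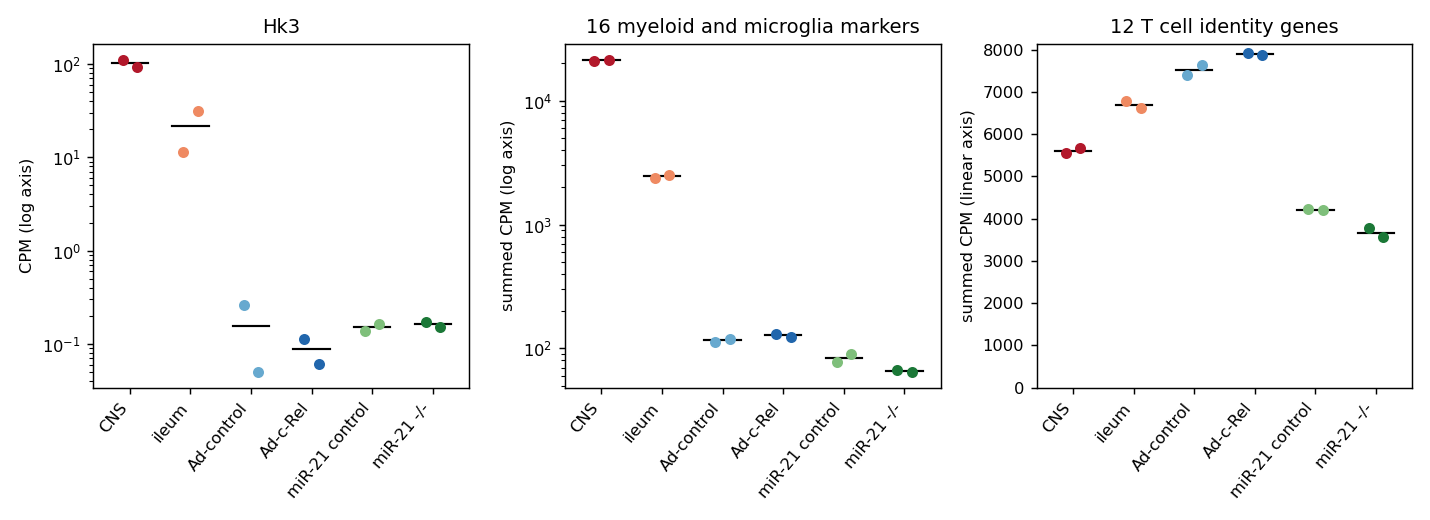
Hk3 level (left, CPM, log axis), summed level of 16 myeloid and microglia markers (middle, CPM, log axis) and summed level of 12 T cell identity genes (right, CPM, linear axis) in the 12 libraries, with group means as bars. Hk3 and the myeloid sum are both highest in CNS and next highest in ileum, while the T cell sum is 5561 to 6778 CPM in all 4 sorted libraries.

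Among the other glucose carriers and hexokinase-type kinases, 5 of 16 could be tested in CNS against ileum and 2 passed, both higher. Slc2a5, the fructose carrier GLUT5 and also a gene of microglia, summed to 1412 counts over CNS and 1 over ileum (ratio 1304, counting interval 234 to 51543; adjusted p = 0.00697). Slc2a6, which encodes GLUT6, was at 71.0 and 91.3 CPM in CNS and 13.5 and 10.4 in ileum (log2 change 2.57, adjusted p = 0.0137; 2.32 and 0.0622 without CNS replicate 2). Hkdc1 and Slc2a4 were not detected in the sorted libraries (0 counts). The median log2 change of the 5 tested was 2.57, against 0.08 over all genes.

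Among the regulators of uptake, a few genes were lower in CNS, again with the part of other cells not tested. Of 19 tested, 0 passed as higher and 4 as lower: Foxo1 (log2 change −2.47, adjusted p = 0.00328), a transcription factor restrained by insulin and T cell receptor signals, Arnt (−2.44, adjusted p = 0.0114), the partner of hypoxia-inducible factors, Tbc1d4 (−1.54, adjusted p = 0.0145), which holds GLUT4 inside the cell, and Hif1a (−0.94, adjusted p = 0.0278). Hif1a lost its call with scaling to T cell identity genes (−0.44, adjusted p = 0.136). The median of the list was −0.14, with 8 of 19 above 0, and that scaling moved the median of all genes by 0.50. DESeq2 called 6 lower, these 4 with Myc and Akt2 (adjusted p = 0.00133 and 0.0217), and 3 higher. The 3 were Txnip (log2 change 0.65, adjusted p = 0.00479), Vdac2 (0.70, adjusted p = 0.000195) and Vdac3 (0.92, adjusted p = 0.000460), and all 5 genes beyond the first 4 are named after their values were seen.

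The steps after glucose 6-phosphate were higher in CNS where they passed by edgeR, and here too the part of other cells was not tested. Of 20 tested, 6 were higher and 0 lower, with a median log2 change of 0.65 against 0.08 over all genes. They were the glycolytic enzyme genes Tpi1 (1.69, adjusted p = 0.00336), Pgam1 (1.57, adjusted p = 0.00684), Pgk1 (1.09, adjusted p = 0.0195), Aldoa (0.64, adjusted p = 0.0233) and Pkm (0.62, adjusted p = 0.0334), and Slc16a3 (2.29, adjusted p = 0.0180), the lactate exporter MCT4. DESeq2 called 9 higher, these 6 with Gpi1, Ldha and Pgm2 (adjusted p = 0.00454, 0.00217 and 0.000112), and 3 lower. The lower ones were Pfkp, the platelet-type phosphofructokinase (log2 change −0.82, adjusted p = 4.92e-05), Slc16a1, the lactate carrier MCT1 (−1.08, adjusted p = 1.65e-05), and Ugp2 (−1.16, adjusted p = 0.00243), and these 6 further genes are likewise named after their values were seen. Leaving out 1 library ended 3 of the edgeR calls. Pgk1 missed the threshold without ileum replicate 2 (0.96, adjusted p = 0.0593), Pkm without CNS replicate 2 (0.55, adjusted p = 0.0711) or ileum replicate 2 (0.52, adjusted p = 0.0853), and Aldoa without CNS replicate 2, ileum replicate 1 or ileum replicate 2 (0.56, 0.60 and 0.68, adjusted p = 0.0816, 0.0556 and 0.0502).

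Added c-Rel went with higher levels of both transporters and of both hexokinases expressed in TH17(β) cells. All 4 members that could be tested passed as higher in Ad-c-Rel than in Ad-control, where 8.16% of 11711 genes were called higher and 6.12% lower. Hk2 had the largest fitted change, 1.47-fold (log2 change 0.55 ± 0.0989, SE; adjusted p = 0.00139). Slc2a3 rose 1.35-fold (0.43 ± 0.0885, SE; adjusted p = 0.00401), Slc2a1 1.28-fold (0.36 ± 0.0726, SE; adjusted p = 0.00379) and Hk1 1.23-fold (0.30 ± 0.0746, SE; adjusted p = 0.0133). For each of these 4 both Ad-c-Rel libraries lay above both Ad-control libraries in CPM, as for 21.4% of tested genes, while 37.3% had both below. Their median log2 change was 0.40, against −0.01 over all genes. Hk3, with 3 counts in Ad-c-Rel and 5 in Ad-control, did not pass the filter on low counts.

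DESeq2 called the same 4 genes higher, with 5.70% of all genes called higher and 3.67% lower. Hk1 lost its call with scaling to T cell identity genes (0.16, adjusted p = 0.123) and without Ad-c-Rel replicate 1 (0.29, adjusted p = 0.0882) or replicate 2 (0.31, adjusted p = 0.0745). That scaling moved the median of all genes by −0.14, and the share of higher genes among calls from 57.1% to 19.5% (39.4% with total gene counts), while all 4 members kept a change above 0. When all 12 libraries shared 1 estimate of the spread, 0 of the 4 passed, with log2 changes of 0.29 to 0.54. The T cell identity genes summed to 7887 to 7921 CPM in Ad-c-Rel and 7406 to 7643 in Ad-control (4 of 12 higher, 1 lower), and the TH17 genes to 7224 to 7271 and 3942 to 4210 CPM (5 of 6 higher). Their part in the result was not tested.

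The isoform balance was compared next in the c-Rel pair. The log2 ratio of Slc2a1 to Slc2a3 differed by −0.08 and its libraries overlapped (exact permutation p = 0.667, two-sided), with −0.22 without Ad-control replicate 2 and 0.06 without Ad-control replicate 1. The log2 ratio of Hk2 to Hk1 was 0.25 higher in Ad-c-Rel, with no overlap between the libraries (exact permutation p = 0.333, two-sided, the smallest that 2 against 2 libraries allow). Without Ad-c-Rel replicate 2 the latter difference was 0.09 and without Ad-c-Rel replicate 1 it was 0.40.

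Among the other carriers and kinases, Slc2a6 was 1 of 6 tested that passed. It rose 2.03-fold, from 16.9 and 17.2 CPM in Ad-control to 35.2 and 31.2 in Ad-c-Rel (log2 change 1.02 ± 0.11, SE; adjusted p = 1.11e-05). Its fitted change was larger than that of the 4 tested members, a difference that was not tested. The median of that list was 0.16. Of the 19 regulators, 2 were higher and 1 lower, with a median of 0.04. Egln3, a hydroxylase that marks HIF-1α for degradation and is itself induced by it, rose by 0.41 on the log2 scale (adjusted p = 0.00165), and its relative Egln1 by 0.36 (adjusted p = 0.0480). Txnip, which draws GLUT1 from the cell surface, fell by 0.32 (adjusted p = 0.0211), from 410 and 333 CPM to 290 and 280. Without Ad-control replicate 1, Txnip was at −0.19 (adjusted p = 0.142) and Egln1 at 0.26 (adjusted p = 0.245), and without Ad-c-Rel replicate 2 they were at −0.31 (adjusted p = 0.0821) and 0.24 (adjusted p = 0.378). Egln1 also missed the threshold with DESeq2 (adjusted p = 0.123).

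The later steps of glycolysis did not shift together with c-Rel. Of 20 tested, 2 passed as higher and 2 as lower, and the median log2 change was 0.05. The higher ones were the lactate carriers Slc16a1 (0.35, adjusted p = 0.00930) and Slc16a3 (0.31, adjusted p = 0.0148). The lower ones were Pfkm (−0.36, adjusted p = 0.0220), a phosphofructokinase, and Aldoc (−0.25, adjusted p = 0.0319), an aldolase. Each of these 4 calls was lost without 1 or another library. Slc16a1 and Pfkm missed the threshold without Ad-control replicate 1 (0.29 and −0.27, adjusted p = 0.0687 and 0.140) or Ad-c-Rel replicate 2 (0.31 and −0.32, adjusted p = 0.0877 and 0.140), and Slc16a3 and Aldoc without Ad-control replicate 2 (0.27 and −0.22, adjusted p = 0.0620 and 0.0687) or Ad-c-Rel replicate 1 (0.23 and −0.26, adjusted p = 0.214 and 0.153). Aldoc also missed it without Ad-c-Rel replicate 2 (−0.25, adjusted p = 0.207). Both lactate carriers lost their calls with scaling to T cell identity genes (0.21 and 0.17, adjusted p = 0.0585 and 0.125).

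**Figure D4:**
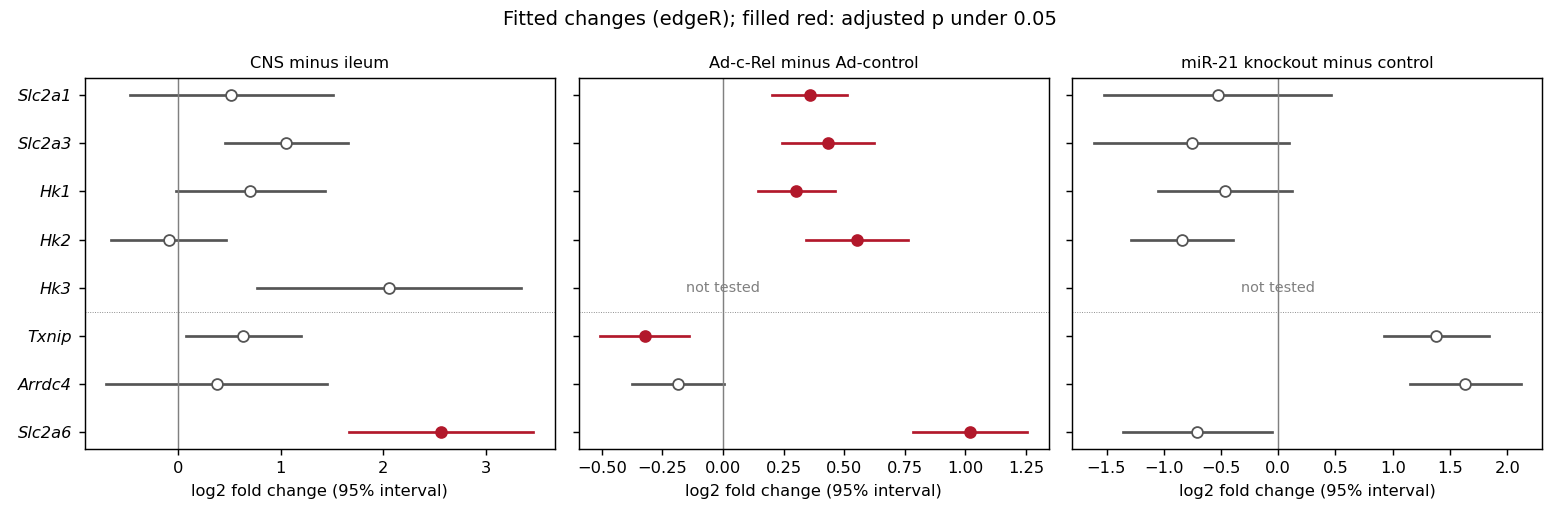
Fitted log2 fold change (edgeR, point) with its 95% interval (line) for the 5 members and for Txnip, Arrdc4 and Slc2a6 in the 3 comparisons; filled red points have an adjusted p under 0.05 and each panel has its own scale. The 4 tested members are above 0 and called in Ad-c-Rel against Ad-control, and below 0 without a call in miR-21-/- against control cells.

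Loss of miR-21 in TH17(23) cells came with lower fitted levels of the 4 expressed members, but 0 of 4 passed in the main fit, without a replicate block. The test called 0% of 13428 genes higher and 0% lower, and at an unadjusted p under 0.05 it had 9.60% higher and 11.4% lower. Hk2 was at 363 and 407 CPM in controls and 193 and 215 CPM in miR-21-/- cells, a fitted log2 change of −0.84 ± 0.179 (SE; 95% interval −1.29 to −0.40; unadjusted p = 0.00375, adjusted p = 0.129). It was the only member with an unadjusted p under 0.05. Slc2a3 was at −0.76 (95% interval −1.61 to 0.10; adjusted p = 0.276), Slc2a1 at −0.53 (−1.52 to 0.46; adjusted p = 0.468) and Hk1 at −0.46 (−1.05 to 0.12; adjusted p = 0.313). The intervals include no change for these 3 and also include decreases of more than 2-fold. Slc2a1 overlapped between the groups. Slc2a3, Hk1 and Hk2 did not and were lower, as were 30.6% of tested genes, while 23.7% were higher without overlap. Hk3 had 11 counts in each group and could not be tested. With a replicate block the other 4 members were all called lower, along with many other genes, as the closing section gives. The labels do not say what a replicate number marks, so that fit was an alternative only.

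DESeq2 called Hk2 lower (log2 change −0.83, adjusted p = 0.00389), with 2.86% of genes called higher and 4.03% lower. Without miR-21-/- replicate 1 the fitted change of Slc2a1 was −0.05, and without miR-21-/- replicate 2 it was −1.21. This value thus depended on which knockout library was used. Slc2a1 was lower in replicate 1 than in replicate 2 of both groups, at 204 and 403 CPM in miR-21-/- and 390 and 546 in controls. Leaving out 1 library therefore also makes the replicate numbers unequal between the groups. Hk2 ran from −0.67 to −1.0 over the 4 fits that leave out 1 library. Scaling to T cell identity genes moved the median of all genes by 0.13 and left all 4 members below 0. The T cell identity genes summed to 3556 to 3787 CPM in miR-21-/- and 4198 to 4232 in control cells, and the TH17 genes to 341 to 667 and 1500 to 2063 CPM. No gene of either list passed by edgeR, DESeq2 called 1 and 2 of them lower, and their part in the result was not tested.

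The Hk2 to Hk1 ratio was lower in miR-21-/- cells without overlap, while the transporter ratio overlapped. The log2 ratio of Slc2a1 to Slc2a3 was 0.15 higher in miR-21-/- cells, with overlapping libraries (exact permutation p = 0.667, two-sided), and it was −0.05 without miR-21-/- replicate 2 and 0.35 without miR-21-/- replicate 1. The log2 ratio of Hk2 to Hk1 was −1.43 and −1.57 in miR-21-/- and −1.04 and −1.20 in control libraries, a difference of −0.38 with no overlap (exact permutation p = 0.333, two-sided, again the smallest possible). In CNS against ileum the Slc2a1 to Slc2a3 ratio differed by −0.42 with overlap (exact permutation p = 1), and this value rests on single libraries, at 0.13 without ileum replicate 1 and −0.98 without ileum replicate 2. The Hk2 to Hk1 ratio there differed by −0.82 with no overlap (exact permutation p = 0.333; −1.0 and −0.63 without the same libraries). Whether the 2 ratios differ from each other was not tested.

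Beyond the members, 0 of 7 other carriers and kinases, 0 of 19 regulators and 0 of 20 later steps passed by edgeR in the miR-21 comparison. DESeq2 called 1 carrier and 2 regulators higher, and 1 regulator and 4 later steps lower. Their median log2 changes were −0.22, −0.11 and −0.21, against −0.02 over all genes. Slc2a4, the insulin-responsive GLUT4, had the smallest p of the carriers (log2 change 1.33, adjusted p = 0.157), at a mean of only 4.07 CPM in miR-21-/- and 1.69 CPM in control cells, followed by Slc2a8 (−0.77, adjusted p = 0.165). DESeq2 called Slc2a4 higher (1.35, adjusted p = 0.0434). Among the regulators, Txnip was at 494 and 575 CPM in miR-21-/- libraries and 223 and 210 in controls (log2 change 1.38, 95% interval 0.92 to 1.84; adjusted p = 0.107). Arrdc4, a related arrestin-type gene, was at 21.3 and 22.5 CPM against 7.06 and 7.76 (1.64, 95% interval 1.15 to 2.12; adjusted p = 0.107). DESeq2 called both higher (adjusted p = 9.55e-09 and 3.51e-08), as did edgeR without miR-21-/- replicate 1 (1.58 and 1.77, adjusted p = 0.00856 and 0.0157). Arrdc4 also passed without control replicate 1 (1.54, adjusted p = 0.0408). Of the later steps, Pfkl, the liver-type phosphofructokinase (−0.77, adjusted p = 0.125), and G6pdx, the entry to the pentose phosphate pathway (−0.90, adjusted p = 0.125), had the smallest p, and both passed without miR-21-/- replicate 1 (−0.74 and −1.10, adjusted p = 0.0419 and 0.0205). DESeq2 called both lower (adjusted p = 0.00105 and 0.00310), together with Slc16a3 and Pgm2 (adjusted p = 0.0267 and 0.0308) and the regulator Vdac1 (−0.69, adjusted p = 0.00279), 3 genes named after their values were seen.

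Across the 12 libraries, Slc2a1, Slc2a3 and Hk1 had like patterns of log2(CPM + 1), with Pearson's r of 0.84 between Slc2a1 and Slc2a3, 0.92 between Slc2a1 and Hk1 and 0.95 between Slc2a3 and Hk1. Hk2 was less like them (0.51, 0.14 and 0.41), and Hk3 ran against them (−0.73, −0.89 and −0.88). These are descriptions over libraries that share kits, experiments and groups, and no p is given. Hk3 held only 1 to 6 counts in each cultured library. Every r of Hk3, here and below, thus mainly restates the gap between the sorted and the cultured libraries and the spread among the sorted ones. Among 9893 genes whose mean level reached 5 CPM, those most like Slc2a1 were Pdxp (r = 0.955), Triobp (0.953) and Tbl2 (0.95). The closest to Slc2a3 were Fam162a (0.997), Galk1 (0.990) and Ero1l (0.990), and to Hk1 Zfp715 (0.995), P4hb (0.990) and Tnfrsf23 (0.988). Hk2 was most like Ankrd17 (0.981), Wipf1 (0.978) and Ube4a (0.975), and Hk3 most like Mpeg1 (0.999), Slamf8 (0.998) and March1 (0.997).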

How the data were processed

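RNA-seq of 12 libraries was used. The deposited values are raw counts of reads for each gene symbol. Per the submitters' processing notes, the tools included Trim Galore 0.4.4, TopHat2 2.1.0, HTSeq 0.11.0, DESeq2, the mm10 build and others, whose roles are not stated. The sources used here name no annotation and no strand option. Lines that name no gene, 14.7% to 26.1% of each table, were left out. Reads with several alignments were 0 in the 4 TH17(23) tables and 2.25% to 3.52% in the others.

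The 4 libraries of each pair were fitted separately by edgeR 4.0.16 under R 4.3.3 (filterByExpr, TMM, quasi-likelihood F test, two-sided, Benjamini-Hochberg over all genes tested, threshold 0.05). Each standard error is the absolute log2 change over the square root of F. CPM used total gene counts, log2(CPM + 1) a pseudocount of 1, and ratios the counts of a library. DESeq2 1.42.0 and other settings were alternatives. Scripts were tested on simulated data. No replicate pair matched within sampling noise (chi-square over degrees of freedom 4.60 to 67.8).

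Members, lists and markers were chosen with earlier results of these data known. Named are all members, up to 6 called genes of each list by smallest p, or the 2 of smallest p where none was called, and the 3 genes most like each member.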

Additional observations from a re-analysis of the deposited data

How the results depend on the processing

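Among fitted changes of single members, 41 of 55 alternatives in CNS against ileum, 37 of 44 in Ad-c-Rel against Ad-control and 39 of 44 in the miR-21 comparison kept the side of the threshold. In the same order, 14, 0 and 5 gained a call and 0, 7 and 0 lost one. Hk2 in CNS against ileum was never called and changed sign under 3 settings. The Hk2 to Hk1 differences kept their sign under every alternative run, while the Slc2a1 to Slc2a3 difference changed sign without 1 or another library in all 3 comparisons. In CNS against ileum, 12038 genes were tested in the main fit. Of these, scaling to total counts called 644 higher and 516 lower, and scaling to T cell identity genes 1017 higher and 362 lower. The fits with no filter and over all 12 libraries kept a different set of genes. The members called went from 0 to 3 with DESeq2 and 1 with scaling to total counts. They were 2 with no filter, with 1 fit over all 12 libraries or with scaling to T cell identity genes. Leaving out single libraries gave 0 to 2. The genes called went from 1163 to 3551 with DESeq2, 2413 with no filter and 4000 with 1 fit over 12 libraries, and to 893 to 1922 without single libraries, the highest without ileum replicate 1. In Ad-c-Rel against Ad-control, 4 members were called, 0 with 1 fit over 12 libraries and 3 to 4 without single libraries. The genes called went from 1673 to 1098 with DESeq2, 19 with 1 fit over 12 libraries, 2759 with scaling to T cell identity genes and 926 to 1369 without single libraries, the lowest without replicate 2 of Ad-c-Rel, and 935 without replicate 1 of Ad-control. In the miR-21 comparison, 0 members were called, 1 with DESeq2 and 0 without any single library. The genes called went from 0 to 836 with DESeq2, 40 with no filter, 1 with 1 fit over 12 libraries and 3 to 1327 without single libraries, the highest without miR-21-/- replicate 1 and 73 without control replicate 1. The cause of these differences was not tested.

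The groups share replicate numbers, but the labels do not say what a number marks, so the replicate block was an alternative only. Deviations of same-numbered samples correlated at 0.108 in CNS and ileum, 0.0435 in the TH17(β) and 0.563 in the TH17(23) libraries. With the replicate block, 1 member was called in CNS against ileum (Hk3, 2.21, adjusted p = 0.0472). In Ad-c-Rel against Ad-control the block fit called 4 members, with 2802 of 11711 tested genes called in either direction. In the miR-21 comparison it called 4 members, with 4807 of 13428 tested genes called in either direction. Those 4 were lower, Slc2a1 at −0.62 (adjusted p = 0.00309), Slc2a3 at −0.77 (adjusted p = 0.00107), Hk1 at −0.47 (adjusted p = 0.00844) and Hk2 at −0.85 (adjusted p = 4.24e-05). Ratio differences with the replicate block equal the values without it. A fit without 1 library leaves a group with 1 sample, whose spread is taken from the other group. Hk3 was nearly absent from the cultures, where 3 to 11 counts a group allow no comparison.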
